A study of Homo sapiens with 10 samples.

Results

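Peaks of N6-methyladenosine (m6A) that lie within 1 Mb of a chromosome end were described in 5 human colon cancer cell lines. A peak belonged here when its summit on chromosomes 1 to 22 lay less than 1 Mb from the first base, or less than 1 Mb before the end of the last peak that any of the 5 lists held on that chromosome. This gave 2115 of the 38106 deposited peaks, of which 536 were from HCT116, 505 from HT29, 92 from HCT15, 428 from COLO320DM and 554 from COLO205. The other 33745 peaks of chromosomes 1 to 22 served as the comparison. Each line is an established culture with 1 m6A immunoprecipitation (IP), sequenced beside 1 input of unenriched RNA. HCT116, HT29 and HCT15 carry the label colorectum, COLO320DM and COLO205 the label colon, and the labels give no treatment. The antibody pulled down pieces of total RNA of about 100 nt, and 10% of the pieces was set aside as input. With 1 library per line there was no spread within a line, and a difference between lists is one between single libraries. Peaks are named by position on hg19, counting from 1, and were not assigned to genes, so the lines' tissue of origin was not checked against marker genes.

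m6A is the most frequent internal mark of messenger RNA. It is written by a complex around METTL3 and METTL14, is read by proteins with a YTH domain, and is best known from long exons and the stretch around stop codons. Subtelomeres, the stretches next to the telomeric repeats, hold dense genes on many arms, blocks duplicated between chromosomes and runs of tandem repeats. They also start TERRA, a long non-coding RNA that runs through the subtelomere into the telomeric repeat and on which m6A has been described. Because blocks recur between ends, a short read from one of them can be placed on several ends.

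The depth behind these peaks was low. The IP reads recovered from the deposited values came to 5.02 M for HCT15, 1.38 M for HCT116, 2.13 M for HT29, 1.47 M for COLO320DM and 2.99 M for COLO205, where M stands for 1e+06 reads. The inputs came to between 1.61 M in HCT15 and 5.41 M in COLO205. HCT15 stands apart: its IP was deeper than its control, each IP read counted as 0.322, and its list held 917 peaks against 8832 to 9998 in the other lists. Mean differences over the lines between the end zones and the rest are given with and without it. The share of each list's peaks found in any other list is given with it only.

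Peaks were concentrated near the ends in all 5 lists. The end zones are 1.53% of the chromosome spans, yet they held 10.8% of HCT15 peaks (95% interval 8.79% to 13.1%), 6.04% of HCT116 peaks (5.55% to 6.55%), 5.97% of COLO205 peaks (5.49% to 6.47%), 5.91% of HT29 peaks (5.42% to 6.44%) and 5.15% of COLO320DM peaks (4.69% to 5.65%). Intervals of shares are exact Clopper-Pearson intervals, and all intervals cover counting error only. The share of peaks was thus 7.06 times the share of the span in HCT15, and 3.37 to 3.95 times in the 4 long lists, with COLO320DM lowest. The mean excess over the lines was 5.24 percentage points (SD 2.28, n = 5 lines), and 4.24 without HCT15. It was positive in 5 of 5 lines, with p = 0.0625 in an exact two-sided sign-flip permutation test over lines and 0.104 after Benjamini-Hochberg adjustment over the 5 quantities compared. That p is the smallest that 5 lines allow, so no comparison over the lines could pass 0.05. The density of genes, which is high near many ends, was not accounted for. Lists of equal length were also compared, with the 852 peaks of highest -log10 p in each. The end zones then held 7.86% in HT29, 7.16% in HCT116 and 5.75% each in COLO320DM and COLO205, against 10.8% in HCT15.

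**Figure D1:**
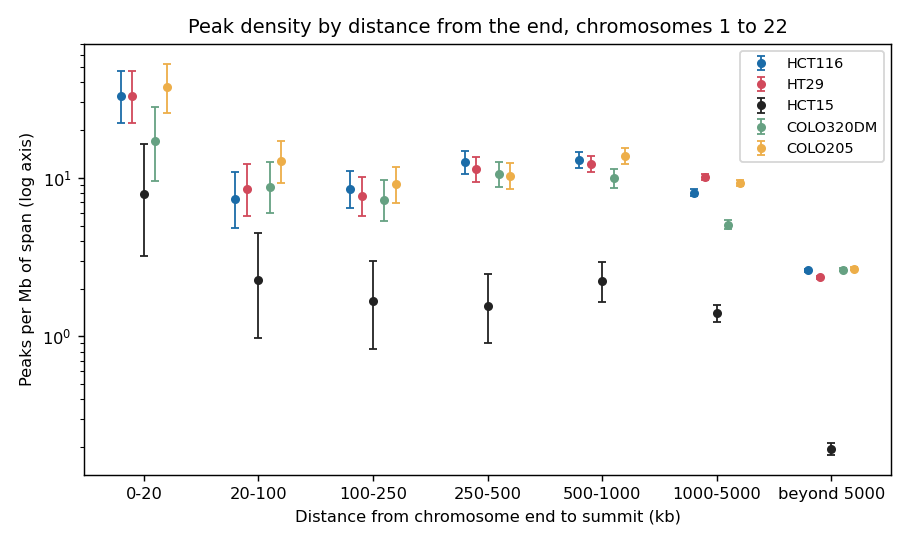
Peaks per Mb of span (log axis) by distance of the summit from the chromosome end in kb, for the 5 lists, with exact Poisson 95% intervals. HCT15 lies lowest in every class, and in all lists the density beyond 5000 kb is below that of each class nearer the end.

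The density of peaks changed with distance from the end. Between 500 and 1000 kb it was 13.8 peaks per Mb in COLO205 (Poisson interval 12.3 to 15.4), 13.05 for HCT116, 12.3 for HT29, 9.91 for COLO320DM and 2.23 for HCT15 (1.65 to 2.94). More than 5 Mb from an end it was 2.67 for COLO205, 2.63 for COLO320DM, 2.61 for HCT116, 2.35 for HT29 and 0.194 for HCT15. In the interior the long lists lay between 2.35 and 2.67. From 500 to 1000 kb COLO320DM was lowest among them, with an interval (8.64 to 11.3) that overlapped that of HT29 (10.9 to 13.8). In the step from 1 to 5 Mb the density was 10.1 in HT29, 9.30 in COLO205 and 8.05 in HCT116, against 5.06 in COLO320DM. For HCT15 it was 1.39 there, also above its interior. The median distance of an end-zone peak was 511 to 547 kb in the 5 lists. Just inside the 1 Mb bound, from 900 to 1000 kb, lay 42 HT29 peaks, and just outside it, from 1000 to 1100 kb, lay 91. HCT116 had 49 inside and 65 outside, COLO205 54 and 70, HCT15 11 and 15, and COLO320DM 25 and 23.

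The outermost 20 kb, called the tips here, held 29 HCT116 peaks, 29 HT29 peaks, 7 HCT15 peaks, 15 COLO320DM peaks and 33 COLO205 peaks. On the long arms the end is the last peak itself, so a peak at each of those tips is fixed by the choice of members. It was supplied by HCT116 on 10 chromosomes, HT29 on 6, COLO320DM on 4, COLO205 on 2 and HCT15 on 0. With both arms together the tips were the densest class in every list, at 37.5 peaks per Mb in COLO205, 32.95 each in HCT116 and HT29, 17.05 in COLO320DM and 7.95 in HCT15. From 20 to 100 kb the density was 12.8 for COLO205, 8.81 for COLO320DM, 8.52 for HT29, 7.39 for HCT116 and 2.27 for HCT15. The short-arm tips alone, whose position the rule does not fix, held 18.2 per Mb in COLO205, 15.9 in HT29, 13.6 in HCT116, 11.4 in COLO320DM and 9.09 in HCT15. There HT29 and HCT116 had peaks on 6 arms (1p, 4p, 5p, 7p, 9p and 18p), COLO205 and COLO320DM on 4 of these (1p, 4p, 5p and 7p) and HCT15 on 2 (1p and 5p). The densities count the first 20 kb of all 22 short arms in full, also of arms without a peak. How much of that length could hold reads was not checked, so these densities may be too low.

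Folds at the short-arm tips were highest in HT29 on 5 of the 6 arms. A fold is the authors' ratio of a summit to its local background, a value of the peak itself. In the model used here to recover reads, 1 is added to both before the ratio is taken. Over a background far below 1 the fold is thus close to the number of IP reads as counted. On 4p, between bases 10014 and 10209, it was 31.2 in HT29, 13.6 in HCT116, 5.80 in COLO205 and 5.77 in COLO320DM, and HCT15 had no peak. The tip of 7p gave 23.1 in HT29, 14.3 in HCT116, 13.5 in COLO320DM and 8.55 in COLO205. On 18p a fold of 17.9 was seen in HT29 and of 10.99 in HCT116, and the other 3 lists had no peak in the first 20 kb. On 9p the fold was 9.52 in HCT116 and 5.29 in HT29. The HT29 peaks on 4p, 5p and 18p stood on 0.0861 input fragments, the lowest background level, with 32, 33 and 18 IP reads, and those on 1p and 7p on 1 input fragment. HCT116 had 21 IP reads on 4p, 18 on 5p and 11 on 18p over 1, 0.225 and 0.150 input fragments, so these folds compare libraries that differ in depth and background. The median fold of short-arm tip peaks was 23.1 over 7 HT29 peaks, 13.98 over 6 HCT116 peaks, 7.85 over 8 COLO205 peaks, 6.92 over 4 HCT15 peaks and 5.77 over 5 COLO320DM peaks. The first peak of each of these 6 chromosomes began between bases 9965 and 10022. Over both arms, the median fold of tip peaks was 8.44 in HT29, 7.70 in HCT116, 7.06 in COLO205, 6.50 in HCT15 and 5.02 in COLO320DM. Deeper in the zones it was 5.81 for HT29, 5.08 for HCT116, 5.80 for COLO205, 5.72 for HCT15 and 5.43 for COLO320DM, so COLO320DM alone had the lower median at the tips. These medians, and the split by arm, were chosen after the values were seen.

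The 44 ends were very unequal. A peak was found at 38 ends, and at 27 ends all 5 lists had one. The 6 ends without a peak were the short arms of chromosomes 13, 14, 15, 21 and 22, whose first peak began at 9552118 on chromosome 21 and further in on the others, and the short arm of chromosome 3, whose first peak began at 2329408. Whether hg19 holds sequence at these 6 ends on which reads could be placed was not checked. Their lack of peaks is therefore not a finding about m6A. The 5 busiest ends, 16q, 5p, 14q, 12q and 7p, held 25.2% of all end-zone peaks, with 122 on 16q, 116 on 5p, 108 on 14q, 95 on 12q and 93 on 7p. On 14q the last peak ended at 106185379, and the assembled chromosome of hg19 is known to run more than 1 Mb past it, so what is called the 14q end here lies further in. Their share was 35.9% in HCT15, 27.2% in HCT116, 25.7% in HT29, 24.4% in COLO205 and 21.03% in COLO320DM.

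**Figure D2:**
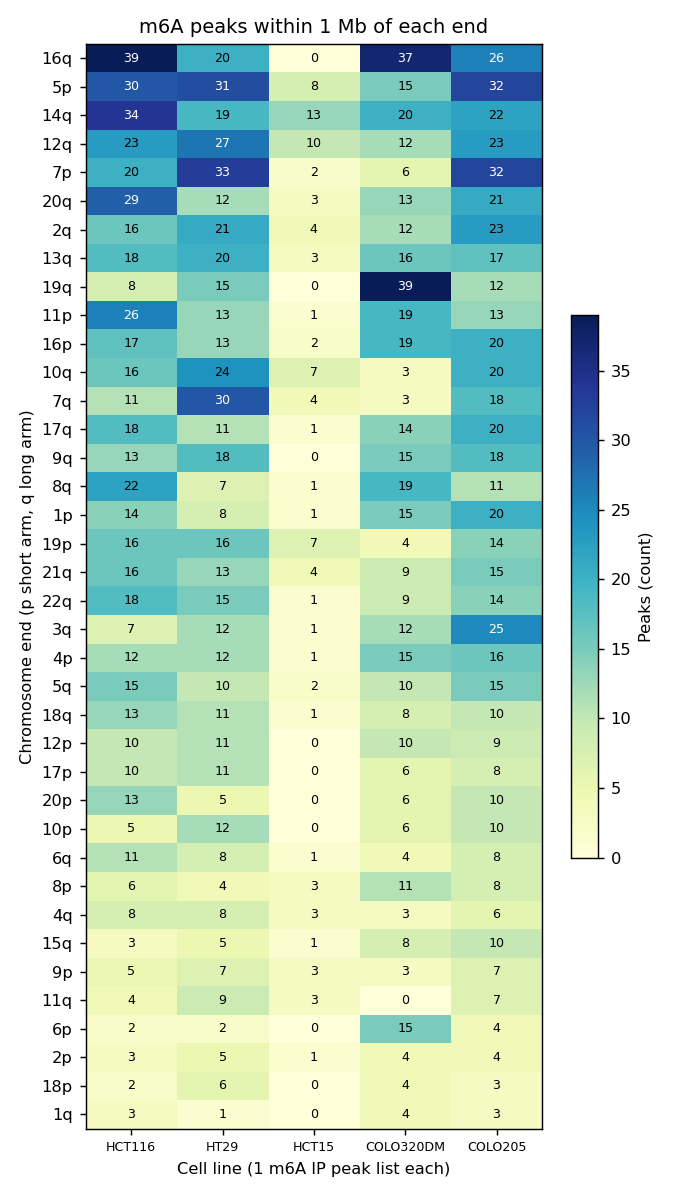
Number of m6A peaks within 1 Mb of each of the 38 ends that held a peak (rows, p for the short and q for the long arm, ordered by total) in each list (columns). HCT15 has no peak on 16q and 19q, where COLO320DM has 37 and 39.

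The lists peaked at different ends. HCT116 had its highest count on 16q (39 peaks), HT29 on 7p (33), HCT15 on 14q (13), COLO320DM on 19q (39), and COLO205 on 5p and 7p (32 each). On 16q COLO320DM had 37 peaks, COLO205 26 and HT29 20, while HCT15 had 0, which allows up to 3 peaks. On 19q HT29 had 15, COLO205 12, HCT116 8 and HCT15 0, so that 9.11% of COLO320DM end-zone peaks lay there (6.56% to 12.2%) against 1.49% of those of HCT116 (0.647% to 2.92%). On 7p COLO320DM had 6 peaks and HCT116 20. In only 16 of the 38 ends did the highest count among the 4 long lists stay within 2 times the lowest.

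End by end, HT29 and COLO205 were ranked most alike. The Spearman correlation of their counts over the 38 ends was 0.797, followed by 0.775 for HCT116 and COLO205 and 0.678 for HCT116 and HT29. COLO320DM had 0.530 with HCT116, 0.495 with COLO205 and 0.267 with HT29, and HCT15 had 0.468 with HT29 and -0.120 with COLO320DM. These describe ends, which share gene density and duplicated sequence and are not independent replicates.

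Within an end the peaks came in stretches, which were picked after their values were seen. Each is the stretch of at most 100 kb in which the list named first had the most peaks. A lead of that list over the others is therefore partly fixed by the choice. On 16q, 16 of the 39 HCT116 peaks lay in 1 stretch of under 100 kb, from 89267122 to 89366644, and the same stretch held 17 COLO320DM, 11 HT29 and 10 COLO205 peaks. On 7p, 13 of the 33 HT29 peaks lay from 605851 to 701613, with 8 from COLO205, 5 from HCT116, 1 from HCT15 and 0 from COLO320DM. On 19q, 14 of the 39 COLO320DM peaks lay from 58917560 to 59013785, against 3 HCT116, 2 HT29 and 1 COLO205 peak. On 14q, 8 of the 13 HCT15 peaks lay from 106149645 to 106171905, where HCT116, HT29 and COLO205 had 3 each and COLO320DM had 0. The 16q stretch was thus common to the long lists, and in the 19q stretch, picked for COLO320DM, most peaks were from that list.

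The protein-coding genes nearest the tip in RefSeq's GRCh38.p14 table, a later build, are given by name and order. On 16q they run PRDM7, DRC4, DBNDD1, DEF8, TUBB3 (a neuronal beta-tubulin) and MC1R (the melanocortin receptor) from the tip inwards. On 5p they run PLEKHG4B, LRRC14B, CCDC127, SDHA (a subunit of succinate dehydrogenase), PDCD6 and AHRR, the repressor of the aryl hydrocarbon receptor. On 19q they run MZF1, UBE2M, CHMP2A, TRIM28 (a co-repressor of KRAB zinc finger proteins), ZBTB45 and SLC27A5. On 12q the order is ANHX followed by the zinc finger genes ZNF268, ZNF10, ZNF891, ZNF140 and ZNF84, and on 7p it is FAM20C, FOXL3, PDGFA (a platelet-derived growth factor chain), PRKAR1B, DNAAF5 and SUN1. No peak was placed in any of these genes, and the table lists them in the order of that build only. Symbols starting with LOC were left out. The median end-zone peak lay 823 kb from the end on 16q, 801 on 12q, 568 on 7p, 477 on 5p and 174 on 19q. The outermost genes therefore need not be those nearest the peaks.

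The unenriched RNA around the peaks was gauged from the local background that the caller used, recovered from each fold and p-value and expressed in input fragments. That background can come from a window of up to 10 kb, and cannot fall below a lowest level. It is therefore not a count of the RNA under the peak itself. A peak was called input-covered when that background reached 1 input fragment, and input-poor otherwise. Of end-zone peaks, input covered 64.3% in COLO320DM (59.5% to 68.8%), 58.02% in HCT116 (53.7% to 62.2%), 46.4% in COLO205 (42.2% to 50.6%), 28.3% in HT29 (24.4% to 32.5%) and 13.04% in HCT15 (6.93% to 21.7%). Over all peaks of chromosomes 1 to 22 the same call was met by 62.6% in COLO320DM, 58.6% in HCT116, 49.6% in COLO205, 38.1% in HT29 and 18.4% in HCT15. End-zone peaks were thus close to the whole list in COLO320DM and HCT116, and poorer in input in HT29, where the rest of the list had 38.7% (37.6% to 39.8%). Lower cover was not particular to the end zones. From 1 to 5 Mb input covered 24.4% in HT29, 38.9% in COLO205, 7.35% in HCT15, 56.4% in HCT116 and 73.5% in COLO320DM. Beyond 5 Mb it covered 42.8%, 52.3%, 24.7%, 59.1% and 61.1% in the same order. The end zones minus the rest came to -3.74 percentage points on average (SD 4.73, n = 5 lines), lower in 4 of 5 lines, with p = 0.188 in the exact sign-flip permutation test and 0.234 after adjustment. The order of the lists depended on how deep each input was. With 1 threshold for all lists, scaled to input depth, input covered 50.9% of end-zone peaks in COLO320DM, 46.6% in HCT116, 16.2% in HT29, 13.04% in HCT15 and 11.9% in COLO205, which puts COLO205 lowest. The mean difference was then -4.56. At the main threshold it was -3.17 without HCT15 and -2.08 without HT29.

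The ends fell along a wide range of input cover. Over the 4 long lists, input covered 102 of 122 peaks on 16q (83.6%), 76.2% on 17q, 72.5% on 16p, 69.6% on 6p and 69.01% on 11p. The 6p value rests on COLO320DM, since the other long lists had 1 covered peak of 8 there. At the other extreme stood 11q with 2 of 20 peaks (10%), 10q with 17.5%, 6q with 19.4%, 18p with 3 of 15 peaks and 7p with 27.5%. HCT15 peaks lay mostly on the input-poor ends: 52 of its 92 were at the 17 ends where input covered under 40% of long-list peaks, and 5 at the 8 ends where it covered at least 60%. The ends under 40% held 25% of COLO320DM, 35.1% of HCT116, 39.5% of COLO205 and 49.1% of HT29 end-zone peaks. The ends of at least 60% held 32.5% of COLO320DM, 27.4% of HCT116, 20.4% of COLO205 and 16.2% of HT29 end-zone peaks. The bounds of 40% and 60% were chosen after the values were seen. Across the 38 ends, the Spearman correlation of long-list input cover with the HCT15 count was -0.396. With every long list given the same weight at an end, it was -0.221, and HCT15 had 50 peaks at ends under 40% and 4 at ends of at least 60%. That weighting was added after the values were seen.

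**Figure D3:**
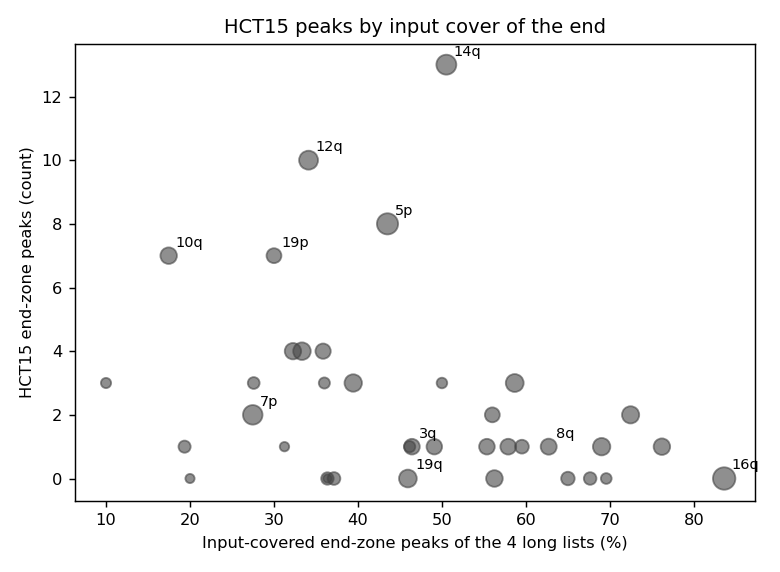
HCT15 end-zone peaks (count) against the percent of input-covered peaks among the end-zone peaks of the 4 long lists, 1 point per end for the 38 ends with a peak, larger where the long lists hold more peaks. The 14q, 12q and 5p ends carry the most HCT15 peaks, and 16q, at 83.6% input-covered, carries 0.

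A stretch of 6p, outside the rule for named ends and chosen after its values were seen, held peaks in COLO320DM and almost none in the other lists. COLO320DM had 15 peaks there between 313846 and 382127. Each was input-covered, with 2 to 60 input fragments in the local background, 13 to 73 IP reads and folds of 1.71 to 6.97. None overlapped a peak of another list, and in the same stretch HT29 had 1 peak while HCT116, HCT15 and COLO205 had 0. RefSeq's GRCh38.p14 order from this tip is DUSP22 (a phosphatase), IRF4 (a transcription factor of lymphoid cells), EXOC2, HUS1B, FOXQ1 and FOXF2. The peaks were not assigned to any of them.

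Peaks near the ends had a slightly higher median fold and width than the rest in each list. The median fold was 5.90 in the end zones and 5.67 in the rest for HT29, 5.86 and 5.70 for COLO205, 5.78 and 5.63 for HCT15, 5.42 and 5.23 for COLO320DM, and 5.25 and 5.08 for HCT116. The differences ran from 0.149 in HCT15 to 0.239 in HT29, positive in 5 of 5 lines, with a mean of 0.180 (SD 0.0361, n = 5 lines) and p = 0.0625 in the exact sign-flip permutation test (0.104 adjusted), and the mean was 0.188 without HCT15. The intervals of the zone and the rest met or overlapped in every list. With zones of 2 Mb the mean difference was 0.0319, positive in 4 of 5 lines, and with zones of 500 kb it was 0.0800, positive in 3. Median width in the zones and in the rest was 145.5 and 124 nt for COLO205, 145 and 124 nt for HCT15, 139 and 129 nt for HT29, 127 and 117 nt for HCT116, and 123 and 114 nt for COLO320DM. The intervals of zone and rest were apart in COLO205, HCT116 and COLO320DM and overlapped in HT29 and HCT15. The mean difference of 14.3 nt (SD 6.36, n = 5 lines) was again positive in 5 of 5 lines, with the same exact p of 0.0625 (0.104 adjusted), and was 12.6 nt without HCT15. Among the 852 peaks of each list with the highest -log10 p the mean difference was 66.8 nt. Greater width was not particular to the end zones. From 1 to 5 Mb the median width was 144 nt in HT29, 136 in COLO205, 132 in HCT15, 127 in HCT116 and 120 in COLO320DM. Beyond 5 Mb it was 126, 121, 120, 116 and 113 nt in the same order.

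**Figure D4:**
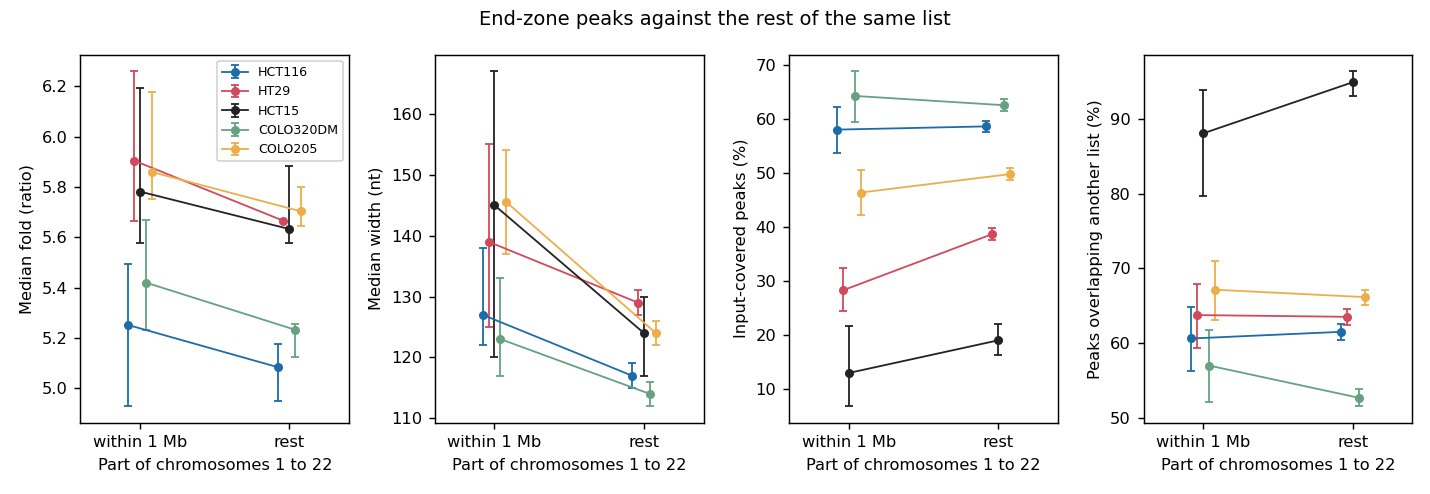
End-zone peaks (left in each panel) against the rest of the same list (right) for median fold, median width in nt, percent of input-covered peaks and percent of peaks overlapping a peak of another list, with 95% intervals (order-statistic for medians, Clopper-Pearson for shares). Width lies higher in the end zones in all 5 lists, and input cover is lower in the zones by the largest margin in HT29.

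A width of 500 nt or more was also more frequent in each list. The share in the end zones and in the rest was 8.12% and 3.83% for HT29, 5.43% and 2.24% for HCT15, 3.79% and 2.15% for COLO205, 3.36% and 1.75% for HCT116, and 2.80% and 1.33% for COLO320DM. End-zone peaks sat closer together as well. A second peak of the same list lay within 1 kb of 51.5% of HT29 end-zone peaks (47.03% to 55.9%), 48.9% for COLO205 (44.7% to 53.2%), 48.9% for HCT15 (38.3% to 59.6%), 40.1% for HCT116 (35.9% to 44.4%) and 35.5% for COLO320DM (31.0% to 40.3%). In the rest it was 38.97% for HT29, 35.4% for COLO205, 40.1% for HCT15, 28.7% for HCT116 and 26.9% for COLO320DM. A denser stretch holds more neighbours, which was not corrected for. The widest end-zone peak of HT29 had 1830 nt and that of HCT116 1714 nt, both at the start of chromosome 5.

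The share of peaks found in another line had overlapping intervals in the end zones and the rest in every list. Split by input class, the intervals were apart for HCT116 peaks of either class and for input-poor COLO320DM peaks. They overlapped for input-covered COLO320DM peaks and for either class of HT29, COLO205 and HCT15. The intervals treat each peak as independent, which neighbouring peaks are not, and they are no test of the zones against the rest. A peak was shared when it overlapped a peak of another list by at least 1 nt. In the end zones this held for 88.04% of HCT15 peaks (81 of 92), 67.1% of COLO205 peaks (372 of 554), 63.8% of HT29 peaks (322 of 505), 60.6% of HCT116 peaks (325 of 536) and 57.01% of COLO320DM peaks (244 of 428). Over all peaks of chromosomes 1 to 22 the shares were 94.1% for HCT15, 66.2% for COLO205, 63.5% for HT29, 61.5% for HCT116 and 52.9% for COLO320DM. The end zones minus the rest averaged -0.441 percentage points (SD 4.06, n = 5 lines), with p = 0.875 in the exact sign-flip permutation test and after adjustment. Of input-covered HCT116 peaks 62.4% were shared in the zones (56.7% to 67.8%) and 71.95% in the rest (70.7% to 73.2%). Of input-poor HCT116 peaks 58.2% were shared in the zones (51.5% to 64.7%) and 46.7% in the rest (45.1% to 48.4%), and of input-poor COLO320DM peaks 35.9% (28.4% to 44.1%) and 26.2% (24.6% to 27.9%). The direction of the mean over all peaks depended on HCT15, since the mean was 0.744 without it. Among the 852 strongest peaks of each list it was 7.93, positive in 5 of 5 lines. With a reciprocal overlap of 50% in place of 1 nt it was -5.80, positive in 0 of 5 lines. An overlap of 1 nt is met more easily by wider peaks, and this was not corrected for.

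Merged over the lists, the end-zone peaks made 1214 regions, of which 443 (36.5%) were in at least 2 lists, against 36.1% of all 21344 regions of chromosomes 1 to 22. Single lists held 771 regions, and 220, 126, 92 and 5 regions were in 2, 3, 4 and 5 lists. The 4 long lists without HCT15 had 66 regions in common, 5.44% of end-zone regions against 6.92% in the rest. HT29 and COLO205 alone had 69 (5.68% against 6.02%), and HCT116 and COLO320DM alone had 56 (4.61% against 4.73%). HCT116, HT29, HCT15 and COLO205 without COLO320DM had 24, which is 1.98% of end-zone regions against 1.33% in the rest.

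Pairs of lists shared end-zone peaks unequally, and mostly as they shared the rest. HT29 end-zone peaks were found in COLO205 in 52.1% of cases and the rest in 51.95%, in HCT116 in 35.6% and 37.3%, and in COLO320DM in 24.2% and 26.7%. COLO205 end-zone peaks were found in HT29 in 49.5%, against 48.6% of the rest, and in COLO320DM in 26.2% (22.6% to 30.04%), where the rest had 30.5% (29.6% to 31.5%). HCT116 end-zone peaks were found in COLO205 in 41.2% (the rest 41.1%), in HT29 in 35.1% (the rest 36.3%) and in COLO320DM in 33.8% (29.8% to 37.9%), where the rest had 39.2% (38.2% to 40.3%). COLO320DM end-zone peaks were found in HCT116 in 44.4%, against 42.1% of the rest. Split by input, 48.6% of input-covered HCT116 end-zone peaks but 13.3% of input-poor ones were in COLO320DM. In HT29 were 28.9% of the input-covered and 43.6% of the input-poor ones. Of HT29 end-zone peaks, 58.7% of input-covered and 10.5% of input-poor ones were in COLO320DM.

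HCT15 end-zone peaks were found in HT29 in 80.4% of cases (70.9% to 87.97%), in COLO205 in 71.7%, in HCT116 in 43.5% and in COLO320DM in 10.9% (5.34% to 19.1%). The rest of the HCT15 list had the same order of partners, where HT29 held 85.8%, COLO205 78.6%, HCT116 41.6% and COLO320DM 4.74% (3.34% to 6.50%). Seen from the other lists, HCT15 held 13.1% of HT29 end-zone peaks (10.3% to 16.3%) and 7.49% of the rest, 11.6% of COLO205 end-zone peaks (9.01% to 14.5%) and 6.70% of the rest, and 7.84% of HCT116 end-zone peaks (5.71% to 10.4%) and 3.77% of the rest. The HCT15 list also held a larger share of end-zone peaks, and its part in these values was not tested. The 11 HCT15 end-zone peaks without a partner lay on 5 ends, with 3 each on 14q and 19p. A pair on 4q, from 190155067 to 190155197 and from 190156152 to 190156318, was the only input-covered one among them, with folds of 11.8 and 4.51 and 70 and 53 unscaled IP reads.

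The 5 regions held by all 5 lists were of unlike kinds. A pair lay at short-arm tips. At the start of chromosome 1, from 9965 to 10435, folds were 24.9 in HT29, 20.9 in COLO205, 20.4 in HCT116, 11.3 in HCT15 and 10.9 in COLO320DM, with 1 input fragment in the background in HCT116, HT29 and COLO320DM and less in HCT15 and COLO205. At the start of chromosome 5, from 9985 to 11814, they were 32.1 in HT29, 16.7 in HCT116, 11.1 in COLO205, 7.52 in HCT15 and 4.86 in COLO320DM, and of these peaks only that of COLO320DM was input-covered. HT29 and HCT116 had 1 peak there across most of the region, and COLO205 had 4 separate ones.

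The region from 47783406 to 47783684 on 21q had an input-covered peak in each list, and its folds were 20.5 in COLO320DM, 20.2 in HCT116, 13.3 in COLO205, 10.5 in HT29 and 5.98 in HCT15. On 5q, the region from 180651173 to 180651645 was covered in all 5 as well, and folds were 19.95 in COLO205, 18.7 in COLO320DM, 8.80 in HT29, 8.10 in HCT116 and 3.93 in HCT15. Its IP reads numbered 42 to 58, those of HCT15 unscaled, and HCT116 had 10 input fragments there against 2 in COLO320DM. HCT116 thus had the lower fold with 57 IP reads, and COLO320DM the higher one with 42. On 11p, from 175510 to 175883, folds ran from 3.85 in COLO320DM to 13.5 in HCT116, on 3 to 13 IP reads.

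**Figure D5:**
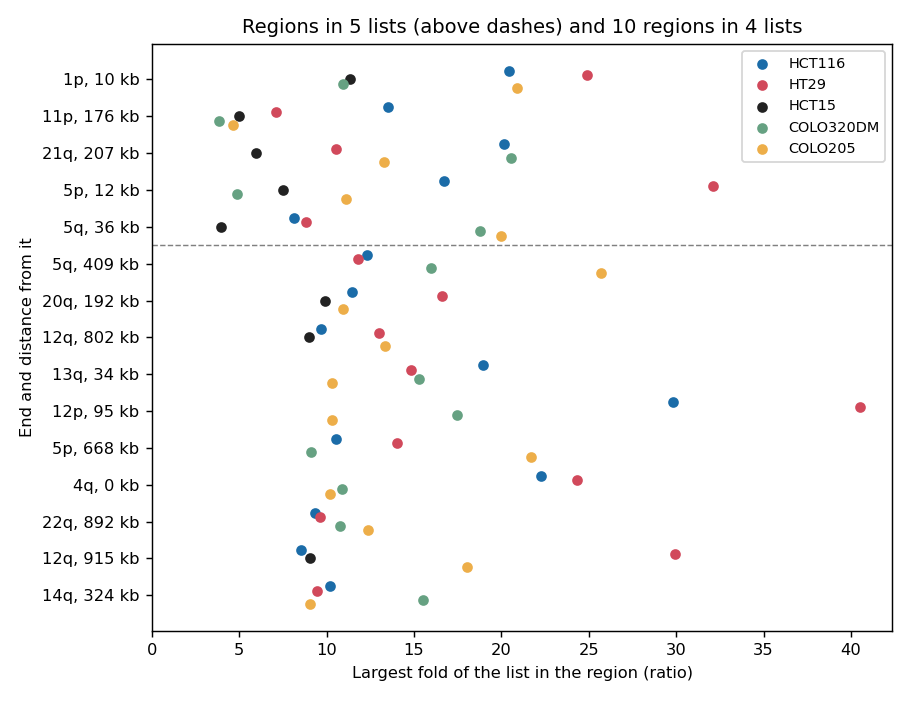
Largest fold of each list (ratio) in the 5 end-zone regions held by all 5 lists, above the dashed line, and in the 10 regions of 4 lists ranked by the lowest fold percentile among those lists. HT29 reaches 40.5 on 12p and 32.1 on 5p, and COLO205 is highest on 5q at 409 kb with 25.7.

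Of the 10 strongest regions in exactly 4 lists, 7 had no HCT15 peak and 3 had no COLO320DM peak. On 12p, from 95309 to 95749, the fold was 40.5 in HT29, 29.8 in HCT116, 17.4 in COLO320DM and 10.3 in COLO205. These stood on 46 IP reads in HT29, 32 in HCT116, 19 in COLO320DM and 11 in COLO205. Each had under 1 input fragment. On 5q, from 180278103 to 180278378, it was 25.7 in COLO205, 15.95 in COLO320DM, 12.3 in HCT116 and 11.8 in HT29, all input-covered. At the last peak of 4q, from 191043575 to 191044173, it was 24.3 in HT29, 22.3 in HCT116, 10.9 in COLO320DM and 10.2 in COLO205. Regions on 13q at 34 kb from the end (folds 10.3 to 18.9), 22q at 892 kb (9.34 to 12.4), 14q at 324 kb (9.02 to 15.5) and 5p at 668 kb (9.11 to 21.7) were also in the 4 long lists. Without COLO320DM were 20q from 62728005 to 62728436 (9.91 in HCT15 to 16.6 in HT29) and 2 regions of 12q, from 133039907 to 133040693 and from 132925949 to 132926665. In the last of these HT29 had a fold of 29.9 and HCT116 of 8.53.

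Other strong peaks of single lists lay outside these regions. HT29 reached 31.8 on 7p from 628025 to 628529, where HCT116 had 7.32, COLO205 6.18 and COLO320DM no peak. COLO205 reached 23.8 on 20p from 741432 to 741671, against 7.71 in HT29 and 5.97 in HCT116. In COLO320DM the end-zone peak with the highest -log10 p, 65.2, was on 17q from 80544065 to 80544412. Its fold was 16.3, and 69 IP reads stood over 5.11 input fragments. HCT116 had a fold of 10.5 there, COLO205 of 8.63 and HCT15 of 5.54, and HT29 had no peak. HCT15 had its second-highest -log10 p on 5p, in a peak of 977 nt from 552846 to 553822, with a fold of 10.5, where COLO205 had 12.7, HT29 8.31 and HCT116 5.78.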

How the data were processed

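Each of the 5 m6A IP libraries has 1 deposited peak list, and the inputs entered only through those lists. Peaks were called with MACS2 on hg19, per the submitters' processing notes, which also name cutadapt, FastQC and BWA. Versions, parameters and the control used are not given in the sources used here. The authors' deposited lists hold positions, a fold (summit over local background, as a ratio), a -log10 p, a -log10 q and a score. The score was the -log10 q times 10 without decimals in all peaks but 1 of COLO205. Computed here, IP reads and background were recovered from fold and -log10 p with the caller's Poisson model and a pseudocount of 1. All peaks had a whole number of reads that met the -log10 p within 0.001, with HCT15 reads counted as 0.322 each. Backgrounds below 1 fragment, above the lowest level, came in whole steps of 1 fragment per 10 kb (tolerance 0.1 step) in 100% of cases. The input was taken to be the control, which no source states. Depth assumes a genome of 2.7 Gb, and a fragment of 73 to 75 nt, the shortest peak. A background of at least 0.99 fragments counted as 1, to allow for rounding.

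Lines were compared as descriptions, and end zones with the rest by an exact sign-flip permutation test over the 5 lines, where sharing makes the lines' values depend on each other. The reads, overlap and permutation code was tested on simulated data, with bedtools 2.31.1 for overlap. The named peaks are the top 3 of each list by -log10 p and the top 3 by fold, all regions in 5 lists, the 10 regions in 4 lists with the highest minimum fold percentile, the 5 busiest ends, the busiest end of each list and the ends with none. Members, lists and tests were chosen with earlier results of these data known. The last peak is not the assembled chromosome end, so a long-arm zone can lie further in, as on 14q. No hg19 genome or annotation was used here, so no sequence is printed. The software was scipy 1.17.1, pandas 2.3.3 and numpy 2.4.6 under Python 3.11.15, and matplotlib 3.10.9 for figures.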

Additional observations from a re-analysis of the deposited data

Results flagged for a closer look

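The difference in input-covered share between the end zones and the rest of a list had opposite signs in different lines. It was 1.72 percentage points in COLO320DM, -0.600 in HCT116, -3.42 in COLO205, -6.04 in HCT15 and -10.4 in HT29. The difference in the share of peaks that overlap another list also changed sign, with -6.82 in HCT15, -0.888 in HCT116, 0.232 in HT29, 0.985 in COLO205 and 4.29 in COLO320DM. With 1 library per line, these differences between lines were not tested.

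Chromosome X was outside the choice of members. Within 1 Mb of its ends, measured in the same way, lay 11 peaks of COLO320DM, 9 of COLO205, 7 of HCT116 and 5 of HT29, above the 3 that a count of 0 allows, and 1 of HCT15. Input covered 3 of those of COLO320DM, 4 of COLO205, 1 each of HCT116 and HT29, and 0 of HCT15.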

How the results depend on the processing

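Of 64 comparison values recomputed under other settings, 61 kept their direction and none passed 0.05, which 5 lines cannot reach. The difference in sharing changed sign with zones of 2 Mb (1.26 percentage points), with the 852 peaks of each list with the highest -log10 p (7.93) and without HCT15 (0.744). The cause was not tested. Over the 5 lines left out in turn it ran from -1.73 to 0.744, and over the other settings from -5.80 with reciprocal overlap of 50% to 7.93. Leaving out a line gave 4.24 to 5.65 percentage points for the excess of peaks, 0.165 to 0.188 for fold, -5.11 to -2.08 for input cover and 12.5 to 15.6 nt for width. Other settings gave 2.40 with zones of 500 kb to 10.8 with zones of 2 Mb for the excess, 0.0319 to 0.212 for fold, -6.45 to -1.67 for input cover and 9 to 66.8 nt for width. The excess depends on zone size, since the zones were 0.765% of the spans at 500 kb and 3.06% at 2 Mb. Its values in percentage points are therefore not comparable between zone sizes. With the outermost 100 kb left out the excess was 4.56 and fold 0.103. A pseudocount of 0 made all peaks of the 4 long lists input-covered, so that setting compares HCT15 only. Of the values of single lists inside the zones, 20 of 35 moved beyond their interval for the share of peaks, 13 of 35 for fold, 19 of 45 for input cover, 27 of 65 for sharing and 9 of 35 for width. Those for the share of peaks include every list with zones of 500 kb and of 2 Mb, which differ in size. The comparison of zones with the rest was paired by line, as it was made within each line. With 1 library per line there were no replicates within a line to use as a block. Low counts limit HCT15, with 92 end-zone peaks, and single ends.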
